A study of Mus musculus with 12 samples.

Results

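The genes described here are 10 transcripts widely used as markers of neural stem cells: Sox2, Sox9, Nr2e1, Hopx, Nes, Vim, Msi1, Fabp7, Prom1 and Ptprz1. They were taken by gene symbol, each symbol matched 1 row, and all 10 of the 34745 genes in the table passed the filter on low counts, which left 16058 genes. RNA came from primary neural stem cells of the hippocampus of wild type C57BL/6 mice, grown in DMEM/F12 with B27, antibiotics, EGF, bFGF and heparin. Cells at passage 2 (P2, n = 4 libraries) were compared with cells at passage 10 that had received small extracellular vesicles of embryonic stem cells from passage 2 on (P10 EV, n = 4) or an equal volume of PBS (P10 PBS, n = 4). By its title the study concerns the rejuvenation of ageing stem cells by these vesicles, and the marker genes describe the stem cell state of the cultures. All groups shared strain, tissue, genotype and medium; the age and sex of the mice and the number of animals behind a culture were not given in the labels. Where nothing says that cultures came from separate animals, p-values measure only the spread between these samples.

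Neural stem cells are glia-like cells that divide slowly or rapidly in the hippocampus and give rise to neurons and astrocytes. They are recognised by a set of transcription factors that hold the progenitor state, by intermediate filaments of the radial fibre, and by surface and lipid-binding proteins shared with radial glia. In culture with EGF and bFGF most cells are kept dividing, and withdrawal from the cell cycle is accompanied by astrocyte genes such as Gfap.

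Sox2 and Nes were the pair of markers whose levels ran against each other across the libraries, so the bases before their start sites are shown, as RefSeq gives them on build GRCm38.p6. Each window holds 230 bases, from 250 to 21 bases before the RefSeq start, on the plus strand and 5′ to 3′, and contains 0 bases of the exons that GENCODE M21 gives to the gene. Relative to the locus start in GENCODE M21, the RefSeq start lay at -410 bases for Sox2 (upstream) and at 15 bases for Nes (downstream). The Sox2 window thus does not adjoin the Sox2 locus that was counted. Of the 10 genes, 8 had an entry in the RefSeq table used, and Sox9 and Msi1 had none. Capitals mark matches on either strand to 5 motifs that were searched for. They were the TATA box, written TATAAA here. A second was the box spelled CCAAT. The third was the GC box, which reads GGGCGG. The remaining motifs hold letters of the consensus that SOX proteins bind, and the first of them was ACAAAG. The other SOX motif was spelled CATTGT.
Sox2, chr3:34649745-34649974: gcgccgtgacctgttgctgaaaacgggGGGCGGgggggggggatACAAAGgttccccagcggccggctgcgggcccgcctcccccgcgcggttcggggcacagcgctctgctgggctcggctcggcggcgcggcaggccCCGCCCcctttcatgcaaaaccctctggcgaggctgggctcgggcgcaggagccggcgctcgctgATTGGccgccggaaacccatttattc
Nes, chr3:87970843-87971072: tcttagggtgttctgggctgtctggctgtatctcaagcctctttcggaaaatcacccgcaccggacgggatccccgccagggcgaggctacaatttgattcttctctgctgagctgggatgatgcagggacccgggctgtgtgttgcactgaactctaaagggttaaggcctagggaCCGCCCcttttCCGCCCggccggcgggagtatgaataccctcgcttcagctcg

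The Sox2 window held 2 GC boxes, 1 CCAAT and 1 ACAAAG, at 73% G and C and with 27 CG pairs. The Nes window held 2 GC boxes, at 58.7% G and C and with 14 CG pairs, against a median of 5 CG pairs over the same window of 32851 promoters. Of those windows 29.8% held a GC box and 32.2% the CCAAT box. The TATA box was found in 11.8%, ACAAAG in 15.4%, and the other SOX motif in 10.1%. The matched motifs did not overlap one another. These matches describe letters only; no binding was measured.

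The libraries held between 10736538 and 16807647 counts, and the 10 genes together took 0.558% to 0.771% of them. Albumin was found at 15.5 to 20.7 CPM in 4 libraries and at no more than 0.145 in the other 8. For this gene CPM are counts scaled to the plain library total. The 4 libraries were replicate 1 of each group and also replicate 2 of P2. Results without these 4 libraries were followed for the marker genes, their family relatives and the wider stem cell list, and are given where a named gene changed its call. That setting keeps only replicates 3 and 4 of P2, so its calls against P2 rest on 2 early libraries. Markers of microglia stayed at or below 0.375 FPKM in sum over 7 genes, and those of mural cells and fibroblasts at or below 4.72 FPKM over 7 genes. The oligodendrocyte lineage list of 10 genes summed to between 873 and 1189 FPKM in the early libraries, 943 and 1249 with PBS and 1050 and 1177 with vesicles, although 6 of the 8 genes tested had a fold change below 0 at P10 PBS against P2 and 5 at P10 EV against P2 (medians -1.04 and -1.02 on the log2 scale). In edgeR 1 of these passed in either comparison, Sox10 at P10 PBS and Cnp, an enzyme of myelin, at P10 EV (-1.59, adjusted p = 0.0433). Of all genes tested 0.928% and 0.585% passed in these comparisons. In either, 4 of the 8 tested had an unadjusted p under 0.05, where 13.6% and 19.2% of all genes did. DESeq2 called Cnp, Mbp, Pdgfra and Sox10, all lower, at P10 PBS, where edgeR gave -1.18, -2.02 and -2.27 for Cnp, Mbp and Pdgfra. At P10 EV DESeq2 called Cnp, Mbp and Sox10. It called 3.69% and 5.75% of all genes in these comparisons, and limma called 0 of the list. The part of these lineage genes in the values of the marker genes was not tested. The list of 8 neuronal genes summed to 20.9 to 32.6 FPKM over all 12 libraries. Of 6 markers of embryonic stem cells, Zfp42 and Dppa5a had 0 counts in all 12 libraries, and the list summed to 0.718 to 1.88 FPKM in early libraries, 1.06 to 1.63 with PBS and 1.08 to 1.15 with vesicles.

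The marker genes covered a wide range of levels, and 2 of them were scarce in all groups. Levels are given per length as the FPKM that the authors deposited. Fabp7, the brain lipid-binding protein that carries fatty acids in radial glia, was the most abundant, with 627 ± 109 FPKM in P2 cultures, 670 ± 26 in P10 PBS and 751 ± 157 in P10 EV (SD, n = 4 each). Among all genes its rank lay between 16 and 40 in every library. Vim, the intermediate filament vimentin, followed with group means of 232, 194 and 175 FPKM. Ptprz1, a receptor phosphatase of radial glia that binds pleiotrophin, and Sox2, the HMG-box factor that maintains the stem cell state, came next, with Ptprz1 at 135, 133 and 140 FPKM and Sox2 at 146, 101 and 96.2 FPKM in P2, P10 PBS and P10 EV. These neighbours overlapped at P2, whereas every library of either late group had more Ptprz1 than any library of that group had Sox2.

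Nes, the filament nestin, and Sox9, an HMG-box factor of stem cells and astroglia, had group means of 36.3 to 59.3 FPKM and overlapped at P2 and P10 PBS. Msi1, the RNA-binding protein Musashi, and Nr2e1, the orphan nuclear receptor Tlx that represses differentiation genes, lay between 7.30 and 13.9 FPKM in all libraries and overlapped in every group. Hopx, an atypical homeodomain protein that marks quiescent hippocampal stem cells, had 14 to 117 counts per library and group means of 2.36 to 2.75 FPKM. Prom1, the membrane glycoprotein prominin or CD133 used to sort stem cells, was the lowest, with 16 to 115 counts and 0.0891 to 0.659 FPKM. Its rank among all genes was 13780 at best. In both late groups every Hopx library lay above every Prom1 library of that group, and at P2 these overlapped. Of the 10 genes, 8 were thus at 7.30 FPKM or more in every library, which is the lowest value of Msi1, and no sample of other cells was at hand to set these levels against.

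**Figure D1:**
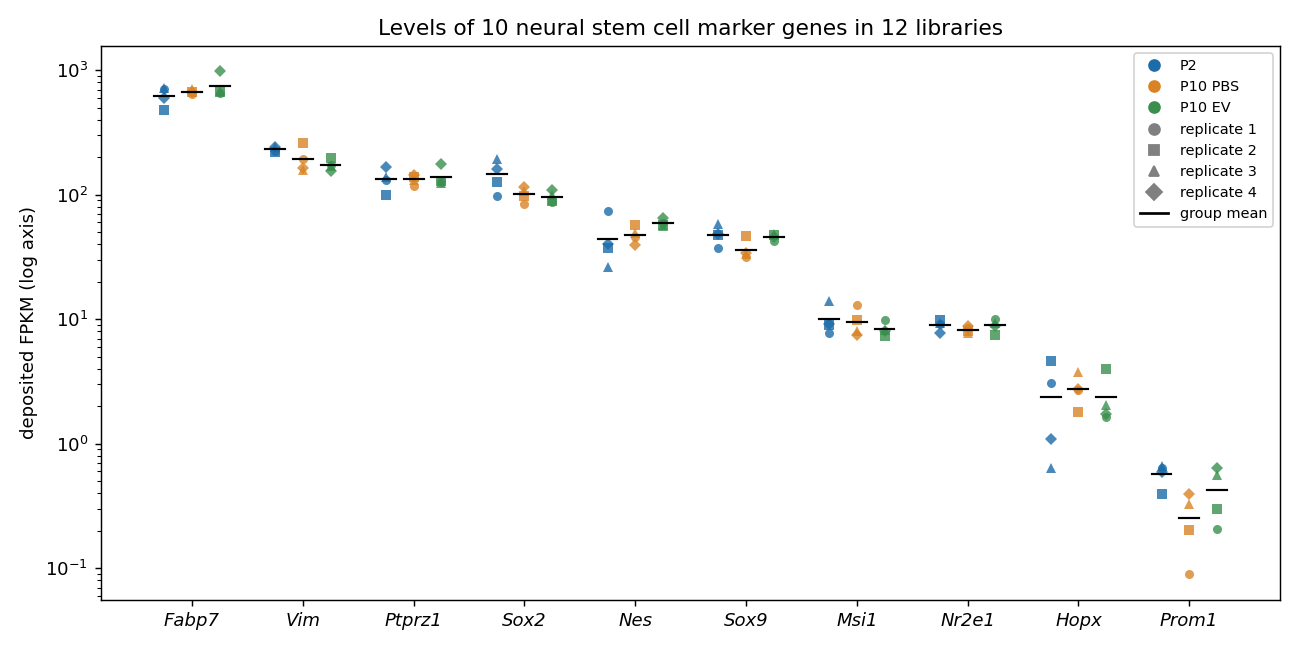
Deposited FPKM (log axis) of the 10 marker genes in the 12 libraries; colour gives the group, the symbol the replicate and the black line the group mean. Fabp7 lies above 482 FPKM in all libraries and Prom1 below 0.66 FPKM, and the groups overlap for most genes.

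The order of levels depended on the gene length behind the FPKM. The length that counts and FPKM imply was 13196 bases for Nes, although the Nes locus (ENSMUSG00000004891; chromosome 3, 87971078 to 87980451) spans 9374 bases and its exons cover 6416 bases in GENCODE M21. For Vim (ENSMUSG00000026728; chromosome 2, 13573927 to 13582826) it was 7809 bases against 4743 exon bases, a ratio of 1.65. For Sox2 (ENSMUSG00000074637; chromosome 3, 34650405 to 34652461), an intronless gene of 2057 bases, and for Sox9 (ENSMUSG00000000567; chromosome 11) the ratio was 1.0, and for the other 6 genes it lay between 1.11 and 1.60. With lengths from the exons of GENCODE M21, which has the same coordinates for all 10 genes, Nes came to 91.6 ± 42.5 on the FPKM scale for P2, 98.6 ± 14.9 for P10 PBS and 122 ± 7.9 for P10 EV. On that scale every P10 EV library had more Nes (116 to 133) than Sox2 (88.2 to 108), the reverse of their order in deposited FPKM (56.5 to 64.8 for Nes). The fold changes from edgeR and DESeq2 rest on counts and do not use the length, whereas the summed FPKM of marker lists and the limma fits do.

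The comparison of P10 PBS with P2 shows what differed with passage without vesicles. Sox2, Sox9 and Prom1 had lower means in late cultures and the other 7 genes moved by less, but 0 of 10 genes passed the test, where 0.928% of all genes tested did. That count came from the quasi-likelihood test of edgeR at an adjusted p under 0.05; 3 genes had an unadjusted p under 0.05, where 13.6% of all genes did, and DESeq2, which called 3.69% of all genes, and limma also called 0 of the 10. Levels between groups are given in CPM, which are counts scaled to library size after TMM normalisation. In a mixed culture, fewer cells of a type and less RNA per cell cannot be told apart.

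Sox2 lay at 201, 271, 417 and 328 CPM in P2 replicates 1 to 4, and at 183, 197, 223 and 238 CPM in P10 PBS replicates 1 to 4. Only P2 replicate 1 fell within the range of the late libraries. The log2 fold change was -0.53 ± 0.19 (SE), with a 95% interval from -0.94 to -0.13 and an adjusted p of 0.233 in edgeR. Without P2 replicate 1 it was -0.68 and passed the test (adjusted p = 0.0245, edgeR), as it did without the 4 libraries with liver transcripts (-0.76, adjusted p = 0.0135). Those settings called 7.47% and 14.3% of all genes tested, and 2 and 1 of the 10 marker genes. Leaving out the 4 libraries kept only P2 replicates 3 and 4 of the early libraries, which had the highest Sox2. Over the other settings the adjusted p of Sox2 reached 0.533. Sox2 lies within Sox2ot, a gene of the same strand with which it shares 0 exon bases and which had 128 to 820 counts.

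Sox9 (chromosome 11, 112782224 to 112787760) lay at 155, 204, 252 and 197 CPM at P2 and at 138, 189, 140 and 140 CPM at P10 PBS. The groups overlapped through P10 PBS replicate 2 and P2 replicate 1. Its log2 fold change was -0.41 ± 0.15 (adjusted p = 0.262, edgeR), and without P2 replicate 1 it was -0.51 and passed (adjusted p = 0.0429). Over all settings it ran from -0.53 to -0.28, with adjusted p up to 0.567.

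Prom1 (ENSMUSG00000029086; chromosome 5, 43993620 to 44102032) had the widest change among the 10 genes and the fewest reads. It had 102, 64, 93 and 81 counts in P2 replicates 1 to 4, or 7.27, 4.68, 7.87 and 6.68 CPM. In P10 PBS replicates 1 to 4 it had 16, 25, 41 and 63 counts, or 1.09, 2.30, 3.84 and 4.58 CPM. It was the 1 gene of the 10 whose P10 PBS libraries all lay below the P2 libraries, a pattern seen for 3.12% of all genes tested (5.7% in either direction), although the nearest pair, at 4.58 and 4.68 CPM, was almost level. The log2 fold change was -1.17 ± 0.43, with an interval from -2.1 to -0.24, and did not pass (adjusted p = 0.261, edgeR; 0.105 to 0.477 over the settings). An antisense gene, Gm16401, shares 424 exon bases with Prom1 and had 1 to 8 counts.

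Intervals of the remaining genes show what sizes of change these libraries leave possible. Ptprz1 (ENSMUSG00000068748; chromosome 6, 22875502 to 23052916) had a log2 fold change of -0.01 with an interval from -0.36 to 0.33. Fabp7 (ENSMUSG00000019874; chromosome 10, 57784881 to 57788450) had 0.10 (-0.24 to 0.43) and Nr2e1 (ENSMUSG00000019803; chromosome 10, 42561963 to 42583632) -0.12 (-0.41 to 0.17). Vim had -0.26 (-0.59 to 0.07), Msi1 (ENSMUSG00000054256; chromosome 5, 115429599 to 115455698) -0.05 (-0.53 to 0.42) and Nes 0.11 (-0.41 to 0.63). For Hopx (ENSMUSG00000059325; chromosome 5, 77086988 to 77115121) the fold change was 0.20 with an interval from -0.92 to 1.32, it was 1.66 without the 4 libraries with liver transcripts (adjusted p = 0.0572, edgeR), and at 14 to 117 counts per library it left the direction unresolved. The median over the 10 genes was -0.09, with 7 below 0, against a median of -0.01 over all genes tested.

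Vesicle-treated and PBS-treated cultures of equal passage were set against each other to read the effect of the vesicles. For the marker genes this gave 0 calls of 10, as for all genes tested (0%), by edgeR; 0 of the 10 had an unadjusted p under 0.05, where 7.24% of all genes did, and DESeq2, which called 0.417% of all genes, and limma called 0 of the 10. The groups overlapped for all 10 genes, where 7.58% of all genes tested did not overlap. Prom1 lay at 2.36, 3.36, 6.25 and 7.14 CPM in P10 EV replicates 1 to 4. Each value was above that of the P10 PBS library of the same number, by 1.12, 0.55, 0.70 and 0.64 on the log2 scale, while the 2 groups as a whole overlapped. The log2 fold change of Prom1 was 0.70 ± 0.43, with an interval from -0.23 to 1.63 (adjusted p = 0.781, edgeR).

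Sox9 lay at 174, 194, 193 and 184 CPM at P10 EV, and 3 of the 4 P10 PBS libraries lay below all of them. It was also higher in 4 of 4 same-numbered libraries, by 0.03 to 0.46 on the log2 scale, with a fold change of 0.29 ± 0.15 (adjusted p = 0.743, edgeR). Sox2, at 180, 180, 197 and 215 CPM with vesicles, was lower in 4 of 4 same-numbered libraries, by 0.02 to 0.18, with a fold change of -0.13 ± 0.19 (adjusted p = 0.918). With the replicate number as a block the adjusted p was 0.699 for Prom1, 0.689 for Sox9 and 0.883 for Sox2. How many of all genes kept their direction in 4 of 4 same-numbered libraries was not counted, so these patterns are a description only.

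Nes had a fold change of 0.25 ± 0.24 and Vim of -0.20 ± 0.15 with vesicles on the log2 scale, and both groups overlapped for either gene. Fabp7 had 0.11, Nr2e1 0.05 and Ptprz1 0.01, with intervals of -0.23 to 0.44, -0.24 to 0.34 and -0.33 to 0.35. Msi1 and Hopx had -0.26 and -0.28. The median over the 10 genes was 0.03, with 6 above 0, against 0.01 over all genes tested.

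**Figure D2:**
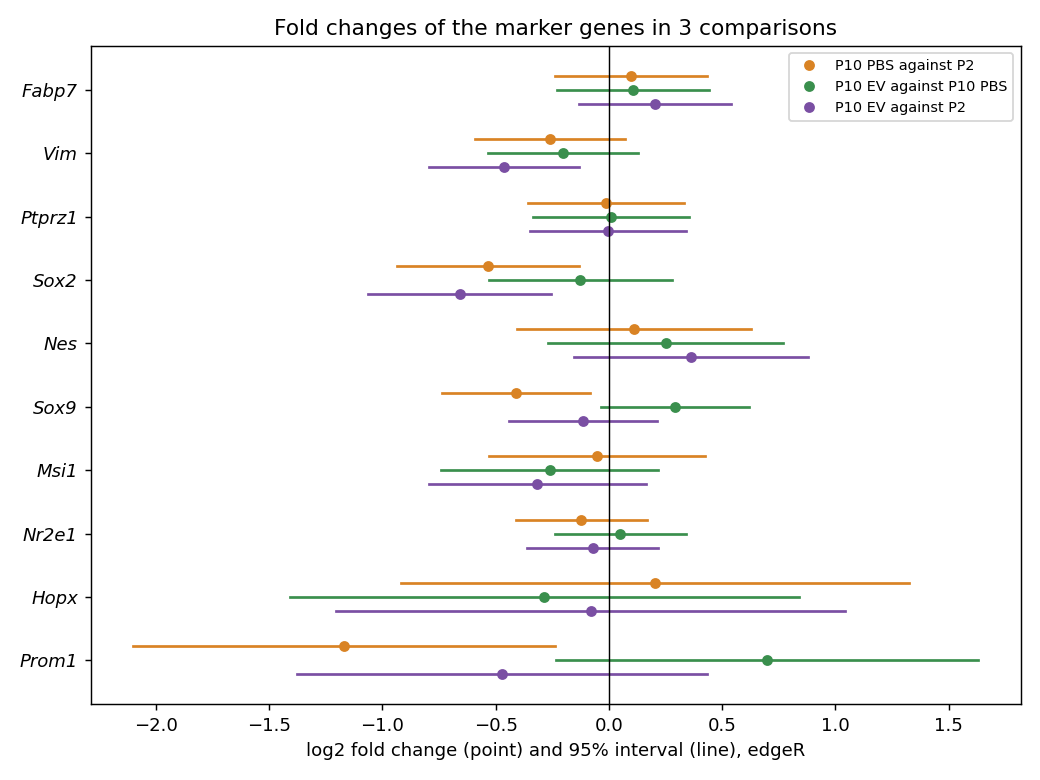
Log2 fold changes (points) and their 95% intervals (lines) from edgeR for the 10 marker genes in 3 comparisons, which share libraries. The intervals of Prom1 and Hopx are the widest, and none of the 30 values passed the test adjusted over all genes.

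The comparison of P10 EV with P2 combines passage and vesicles, and shares its P2 libraries with the passage comparison and its P10 EV libraries with the vesicle comparison. Among the 10 genes 0 passed in edgeR, where 0.585% of all genes tested did; 2 had an unadjusted p under 0.05, where 19.2% of all genes did. Sox2 was called by DESeq2, which called 5.75% of all genes, and by no other tool used on all 12 libraries. Vim lay at 1743, 1785, 1969 and 1853 CPM in P2 replicates 1 to 4 and at 1357, 1520, 1291 and 1164 CPM in P10 EV replicates 1 to 4. All P10 EV libraries thus lay below all P2 libraries, as for 4.36% of all genes tested (9.02% in either direction), and it was the 1 gene of the 10 to do so; P10 PBS, at 1249 to 1997 CPM, spanned both. The log2 fold change of Vim was -0.46 ± 0.15 (adjusted p = 0.145, edgeR), from -0.52 to -0.40 over the settings.

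Sox2 had a log2 fold change of -0.66 ± 0.19 against P2 (adjusted p = 0.112, edgeR; 0.0293 with DESeq2). Without P2 replicate 1 it was -0.80 (adjusted p = 0.00742, edgeR), and without the 4 libraries with liver transcripts -0.91 (adjusted p = 0.00477). Nes lay at 978, 515, 360 and 520 CPM in P2 replicates 1 to 4 and at 772, 734, 719 and 825 CPM in P10 EV. Its fold change was 0.36 ± 0.24 (adjusted p = 0.418); it was 0.73 and passed without P2 replicate 1 (adjusted p = 0.0116), and 0.79 without the 4 libraries with liver transcripts (adjusted p = 0.0246). Those settings called 17.5% and 20.6% of all genes tested, and 2 of the 10 marker genes each. Over all settings the fold change of Nes ran from 0.17 to 0.79, with adjusted p up to 0.778. That of Sox2 ran from -0.91 to -0.48, with adjusted p up to 0.254. Prom1, at -0.47 ± 0.42, and the other 6 genes, from -0.31 to 0.20, did not pass.

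The early cultures were unequal in some of the marker genes. The SD of log2 CPM at P2 was below that of the middle gene tested for 6 of the 10 and above it for Sox2, Nes, Msi1 and Hopx, so wide spread was not a trait of the 10 as a whole. P2 replicate 1 had the lowest Sox2 and the highest Nes of the P2 libraries, whereas P2 replicate 3 had the highest Sox2 and the lowest Nes. The coefficient of variation of Nes was 45% in P2 cultures, 13.9% with PBS and 6.22% with vesicles, and that of Sox2 was 30%, 11.9% and 8.65%. Hopx was as uneven, at 5.49, 8.55, 1.18 and 1.90 CPM in P2 replicates 1 to 4, or 77, 117, 14 and 23 counts; 96.9% of all genes tested had a smaller SD of log2 CPM at P2, against 76% for Nes and 60.1% for Sox2. An antisense gene, Hopxos, shares 412 exon bases with Hopx and had 0 to 9 counts. Vim was the most even of the 10 at P2, with a coefficient of variation of 5.38% and 2.01% of genes below it in SD.

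Across all 12 libraries Sox2 and Nes ran against each other. Pearson's r of their log2 CPM was -0.85 (permutation p = 0.00072, two-sided; adjusted p = 0.0324 over 45 pairs of the 10 genes) and Spearman's rho -0.65 (permutation p = 0.0262; adjusted p = 0.613). Without P2 replicates 3 and 4, the 2 libraries farthest from the median of Sox2, r was -0.62, and with group means removed it was -0.86. The latter value leans on P2, where the SD of log2 CPM was 0.44 for Sox2 and 0.60 for Nes. The SDs were 0.17 and 0.21 at P10 PBS and 0.12 and 0.09 at P10 EV. Replicate 4 was highest in Sox2 and lowest in Nes at P10 PBS, but highest in both genes at P10 EV. A group of 4 libraries is too small for a value of its own, and libraries of the same culture code may not be independent. Of the other 44 pairs, 0 passed after adjustment by Pearson's r; the nearest was Fabp7 with Ptprz1 (r = 0.64, adjusted p = 0.377), which turned to -0.33 without P10 EV replicate 4 and P2 replicate 2.

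**Figure D3:**
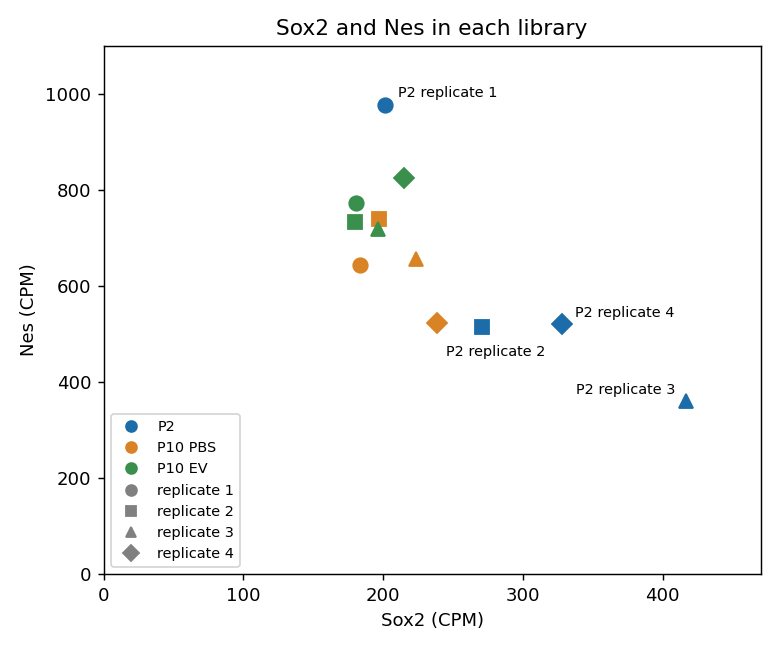
Sox2 against Nes (CPM, both axes from 0) in the 12 libraries; colour gives the group, the symbol the replicate. P2 replicate 1 lies at the top left, at 201 CPM of Sox2 and 978 of Nes, and P2 replicate 3 at the bottom right, at 417 and 360.

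Markers of astrocytes and of dividing cells moved with these genes among the early cultures. In P2 replicates 1 to 4, the 8 astrocyte markers summed to 148, 246, 655 and 356 FPKM, and the 7 proliferation markers to 366, 176, 84.3 and 135 FPKM. The P2 library highest in Sox2 was thus the highest in astrocyte and the lowest in proliferation markers, and the library highest in Nes was the reverse. Gfap, the astrocyte filament, stood at 346 CPM in P2 replicate 3 and at 1.35 CPM in P2 replicate 1. Late cultures lay at 194 to 340 FPKM of astrocyte and 236 to 297 FPKM of proliferation markers with PBS, and at 150 to 187 and 291 to 370 FPKM with vesicles. The order seen among the P2 libraries did not hold in the late groups. P10 PBS replicate 1 was highest in astrocyte markers (340 FPKM) and lowest in proliferation markers (236 FPKM), but lowest in Sox2 (183 CPM). P10 EV replicate 4 was highest in Sox2 (215 CPM) and lowest in astrocyte markers (150 FPKM). Of the astrocyte list 0 of 7 genes tested passed at P10 PBS against P2, where 0.928% of all genes did by edgeR. At P10 EV against P2, where 0.585% of all genes passed, 1 fell, the glutamate transporter gene Slc1a2 (-1.58, adjusted p = 0.0469, edgeR). In each comparison 4 of the 7 had an unadjusted p under 0.05, where 13.6% and 19.2% of all genes did. With vesicles against PBS all 7 astrocyte genes had a fold change below 0 in edgeR, with a median of -0.58 against 0.01 over all genes tested. The sign of Gfap was not stable. Its fold change was 1.08 without P10 PBS replicate 1, and 0.069 and 0.1923 in limma on log2(FPKM + 1) and log2(FPKM + 0.1). Of the 7, 0 passed in edgeR, DESeq2 or limma. In edgeR 3 had an unadjusted p under 0.05, where 7.24% of all genes did. Of the proliferation list, 0 of 7 passed in either comparison with P2 by edgeR, DESeq2 or limma. In edgeR 1 and 4 had an unadjusted p under 0.05, where 13.6% and 19.2% of all genes did. With DESeq2 the astrocyte gene Aldh1l1 was called beside Slc1a2 at P10 EV against P2, where 5.75% of all genes were called. The part of these cell states in the values of Sox2 and Nes was not tested.

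**Figure D4:**
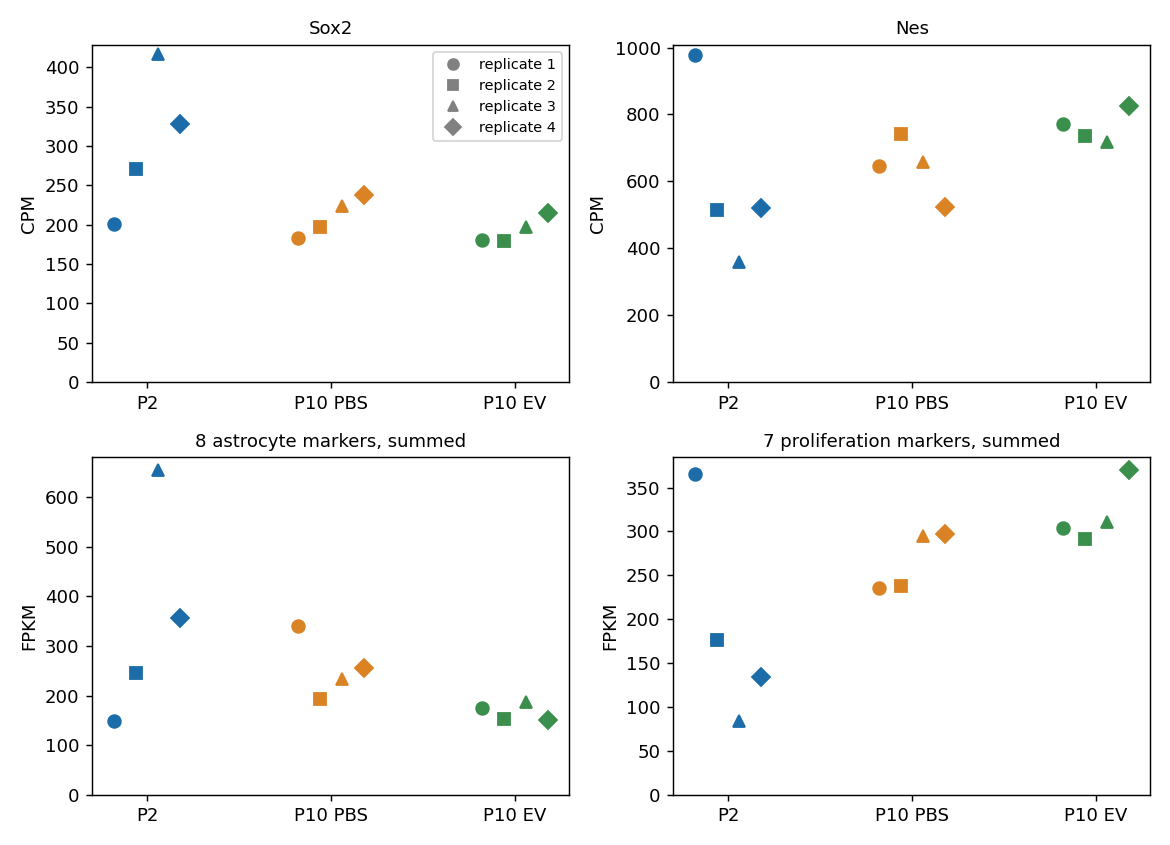
Sox2 and Nes (CPM) above, and the summed FPKM of 8 astrocyte and 7 proliferation markers below, in each library by group; symbols give the replicate and all axes start at 0. P2 replicate 3 is highest in Sox2 and astrocyte markers and lowest in Nes and proliferation markers.

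Relatives of the marker genes were read by family. Sox1 and Sox3, which share with Sox2 the maintenance of progenitors, lay at 64.8 ± 13.4 and 100.1 ± 14.1 CPM at P2; their log2 fold changes were -0.12 and 0.08 at P10 PBS against P2 and -0.20 and 0.00 with vesicles, none of them called. Sox3 changed sign in some settings. Of the group of Sox9, Sox8 was at 412 ± 171, 318 and 316 CPM in P2, P10 PBS and P10 EV. Its fold change at P10 EV against P2, -0.38, was not called. It passed without P2 replicate 1 (-0.56, adjusted p = 0.049, edgeR) and without the 4 libraries with liver transcripts (-0.74, adjusted p = 0.0396). Over all settings it ran from -0.74 to -0.09, with adjusted p up to 0.87. Sox10, which drives the oligodendrocyte lineage, fell from 71.8 ± 52.4 to 3.41 ± 1.62 CPM at P10 PBS (-4.39 ± 0.80, adjusted p = 0.0243, edgeR), with P2 replicate 1 at 5.28 CPM. Its call was lost without P2 replicate 3 or 4 or any single P10 PBS library (highest adjusted p 0.0862), with the 8 libraries alone (0.0666) and in limma on either FPKM scale (0.0508 and 0.0625). At P10 EV it lay at 9.88 ± 6.45 CPM (-2.86 against P2, adjusted p = 0.0928), which passed with DESeq2 (0.0109), without P2 replicate 1 (-3.24, adjusted p = 0.00382, edgeR) and without the 4 libraries with liver transcripts (-3.004, adjusted p = 0.0073).

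Msi2, the second Musashi protein, had 367 ± 69.5 CPM in P2 and 281 ± 26.2 in P10 EV cultures (-0.38, adjusted p = 0.174, edgeR). The fold change was -0.52 without P2 replicate 2 (adjusted p = 0.0477) and -0.50 without the 4 libraries with liver transcripts (adjusted p = 0.0225). Over all settings it ran from -0.52 to -0.30, with adjusted p up to 0.367. Fabp5, the fatty acid carrier of skin and of neural progenitors, lay at 338, 319 and 252 CPM in P2, P10 PBS and P10 EV; of the 5 fatty acid binding genes beside Fabp7, 2 were tested and 0 passed in any comparison by edgeR, DESeq2 or limma, with 1, 0 and 1 at an unadjusted p under 0.05 in edgeR. Of 10 intermediate filament genes beside Nes and Vim 7 were tested and 0 passed in any comparison by edgeR. An unadjusted p under 0.05 was found for 4, 0 and 3 at P10 PBS against P2, with vesicles and at P10 EV against P2. Of all genes tested 13.6%, 7.24% and 19.2% had one, in that order. DESeq2 called 2, the neurofilament genes Nefl and Nefm, both lower at P10 PBS than at P2, and limma 0. In that comparison DESeq2 called 3.69% of all genes. Gfap was not called from all 12 libraries, with fold changes of -3.14 at P10 PBS and -3.44 at P10 EV against P2 (adjusted p = 0.285 and 0.17, edgeR). It passed at P10 EV without P2 replicate 1 (-3.84, adjusted p = 0.0241, edgeR). Without the 4 libraries with liver transcripts it passed in both (-5.46, adjusted p = 0.00595, and -4.19, adjusted p = 0.00748, edgeR). Over all settings the fold change of Gfap ran from -5.46 to -0.89 at P10 PBS, with adjusted p up to 0.819. At P10 EV it ran from -4.19 to -1.2, with adjusted p up to 0.642. Synm, which forms filaments with nestin and vimentin, lay at 5.94 ± 1.46, 8.01 and 8.30 CPM in P2, P10 PBS and P10 EV. Its fold change at P10 EV against P2, 0.48, was not called. It passed in the setting without the 4 libraries with liver transcripts (0.86, adjusted p = 0.0198, edgeR). Over all settings it ran from 0.19 to 0.86, with adjusted p up to 0.475.

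Of 7 ligands and partners of Ptprz1, 1 fell in either late group against P2 in edgeR. Of all genes tested 0.928% passed at P10 PBS and 0.585% at P10 EV. With vesicles 0 passed in edgeR, DESeq2 or limma. In edgeR 3 had an unadjusted p under 0.05 with vesicles, where 7.24% of all genes did. Mdk, the growth factor midkine, fell from 2.44 ± 1.04 CPM at P2 to 0.470 ± 0.256 at P10 PBS (-2.30 ± 0.47, adjusted p = 0.0362, edgeR) and to 0.383 ± 0.170 at P10 EV (-2.63 ± 0.47, adjusted p = 0.0333). It had 30, 15, 38 and 40 counts in P2 replicates 1 to 4 against 12, 3, 3 and 7 at P10 PBS and 6, 2, 7 and 7 at P10 EV. The early libraries thus lay above all late libraries. Of all genes tested, 3.12% were lower without overlap at P10 PBS and 4.36% at P10 EV. Mdk passed the filter on low counts only through its P2 libraries, where it was high, so its fall is given as a description only. The call at P10 PBS was lost without any single library other than P2 replicates 1 and 2 and P10 EV replicate 2 (highest adjusted p 0.119), and from the 8 libraries alone (0.0929). That at P10 EV was lost without P2 replicate 3 or 4, P10 PBS replicate 4 or any P10 EV library (highest adjusted p 0.115), and from the 8 libraries alone (0.0584). Ptn, the related ligand pleiotrophin, was far more abundant, at 514 ± 99.4, 608 ± 62.1 and 449 ± 25.2 CPM. All 4 P10 EV libraries had less Ptn than all 4 P10 PBS libraries, as for 3.84% of genes tested, with a fold change of -0.44 ± 0.14 (adjusted p = 0.55). Nrcam was likewise lower in all P10 EV libraries (-0.45, adjusted p = 0.631, edgeR), whereas Cntn1 was higher in all of them (0.45, adjusted p = 0.668). The remaining partners overlapped between these groups. Tenascin C (Tnc), a matrix ligand of stem cell niches, lay at 2725 ± 1024 CPM in P2 and 1456 ± 174 in P10 PBS cultures, with all late libraries lower (-0.90 ± 0.24, adjusted p = 0.103, edgeR; 0.013 with DESeq2). At P10 EV against P2 it was at -0.998 ± 0.24 (adjusted p = 0.0742), and passed with DESeq2 (0.00444), without P2 replicate 1 (-0.86, adjusted p = 0.0295) or 2 (-1.15, adjusted p = 0.045) and without the 4 libraries with liver transcripts (-1.14, adjusted p = 0.02).

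A wider list of 44 genes of stem cells and radial glia gave 0 calls by edgeR in all 3 comparisons. Unadjusted p-values under 0.05 numbered 9 at P10 PBS against P2, 7 with vesicles and 13 at P10 EV against P2, where 13.6%, 7.24% and 19.2% of all genes had one, and medians were -0.03, -0.11 and -0.16. DESeq2 called 1 of the 44 at P10 PBS against P2, Tnc, and 4 at P10 EV against P2, Fgfr2, Itga6, Sox21 and Tnc, all lower, and 0 with vesicles, beside 3.69%, 5.75% and 0.417% of all genes in that order. Without P2 replicate 1 the count by edgeR was 2 and 9 of 44, where 7.47% and 17.5% of all genes were called, and among these the Notch target Hes5 was at -1.94 and the Notch ligand Dll1 at -1.18 at P10 PBS against P2. Without the 4 libraries with liver transcripts it was 6 and 11 of 44, where 14.3% and 20.6% of all genes were called. At P10 PBS against P2 these held Hes5 (-2.26, adjusted p = 0.0109, edgeR), Dll1 (-1.32, 0.027), Itga6 (-0.96, 0.00444) and Sox21 (-0.96, 0.017). At P10 EV against P2 they held Hes5 (-2.10, 0.0093), Dll1 (-1.30, 0.0216), Itga6 (-1.09, 0.00176), Sox21 (-1.15, 0.00625) and Fgfr2 (-1.51, 0.00455). They also held Cdh2, which was higher (0.63, adjusted p = 0.00909, edgeR). Abundant genes of the list included Tnc, Slc1a3, the glutamate transporter of radial glia, Notch1, the integrin Itgb1 and Sox8. Slc1a3 lay at 1634 ± 529, 2055 ± 425 and 1412 ± 127 CPM in P2, P10 PBS and P10 EV. In the same order Notch1 lay at 980 ± 179, 772 ± 170 and 766 ± 77 CPM. Itgb1 lay at 694 ± 62.1, 734 ± 52.5 and 734 ± 25.7 CPM.

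The genes whose pattern over the 12 libraries was most like that of a marker were sought among 10755 genes with a mean of at least 5 CPM, as a description with no test. Sox2 was most like Vamp1, Tmc7 and Cdk19 (r = 0.96 for each), and Nes most like Ctbp2, Scaf4 and Pbdc1 (0.96 to 0.97). Prom1 was most like Setbp1 (0.96), Pot1a and Syt14 (0.92), and Vim most like Rapgef3 (0.97), Ptp4a3 and Fbxl16. Ptprz1 had Snx13 (0.97), Zfyve16 and Atad1; Msi1 had Vps37b (0.95), Hdac8 and Fam189a2; Sox9 had Zc4h2, Bbs9 and Amotl2 (0.92 each). Hopx followed Podxl (0.93), Xxylt1 and Osbpl3. Values were lower for Fabp7, with Ebag9 (0.87), Sgk3 and Usp45, and for Nr2e1, with Engase (0.85), Prrc2b and Inhbb. The genes most opposite, chosen after their values were seen, were Rfc3, a clamp loader of DNA replication, for Sox2 (r = -0.97) and Ntrk2, the receptor of brain-derived neurotrophic factor, for Nes (-0.98).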

How the data were processed

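Paired-end poly-A libraries were made with the TruSeq RNA kit, per the labels' protocols. HISAT2 2.0.4 and StringTie 1.3.0 are listed in the submitters' processing notes without a role; the sources used here do not give the counting program, its use of strand or the genome build. The authors deposited raw counts per gene and FPKM, per the file headers; a second table with the same values was not used. All value columns matched a library name in the labels (0 unmatched).

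The 10 genes, lists and tests were chosen with earlier results of these data known. Genes passed filterByExpr of edgeR 4.0.16 (minimum count 10), counts were scaled by TMM, and a quasi-likelihood model with 1 term per group took in the 12 libraries (9 residual degrees of freedom) in R 4.3.3; p-values were adjusted by Benjamini-Hochberg over 16058 genes. Fold changes are log2 with SE and a 95% interval. Each named gene of the wider lists was a called gene, a family relative or among the 4 most expressed. The exceptions, named after their values were seen, were genes called by DESeq2 or in a setting, those of opposite pattern, Nrcam and Cntn1. Pattern likeness used log2 CPM with a prior count of 2. The steps were tested on simulated data.

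Alternatives were DESeq2 1.42.0 (size factors, Wald test), limma 3.58.1 on log2(FPKM + 1) and log2(FPKM + 0.1), no filter, the 8 libraries of a comparison, a replicate block and leaving out each library; leaving out the 4 libraries with liver transcripts (albumin above 1 CPM of the plain library total) was added after seeing the data. Replicate numbers carry a culture code in the library names, which the labels do not explain. Deviations from group means of same-numbered libraries correlated at 0.37, 0.148, 0.138 and 0.208 between P10 EV and P10 PBS. Replicates 1, 2 and 4 of P10 EV matched the same number best, but replicate 3 matched P10 PBS replicate 4 best. The numbers thus pair those groups only in part. Between P10 EV and P2 the same-number values lay at 0.087 to 0.187 and between P10 PBS and P2 at -0.084 to 0.211. Intervals of low counts cover counting error and spread between these libraries only.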

Additional observations from a re-analysis of the deposited data

Results flagged for a closer look

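In 4 of 30 groups of 4 libraries tested, 1 library lay far from the other 3; chance flags about 1 in 20 groups. Fabp7 stood at 1437 CPM in P10 EV replicate 4, with the nearest library at 1001 CPM. Ptprz1 stood at 3513 CPM in the same library, with the nearest at 2593 CPM. Sox9 stood at 189 CPM in P10 PBS replicate 2, against 140 CPM in the nearest library. Hopx stood at 6.97 CPM, from 83 counts, in P10 EV replicate 2, against 3.54 CPM in the nearest.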

How the results depend on the processing

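Fold changes of single genes kept their direction and side of the threshold in 1248 cases; 80 changed sign, 24 gained and 27 lost a call. With the replicate block, the all-gene counts were 167 at P10 PBS against P2, 0 with vesicles and 67 at P10 EV against P2, and the marker genes stayed at 0 in all 3; it changed no call on the marker genes. Calls over all genes in these comparisons numbered 592, 67 and 924 with DESeq2, and 38, 2 and 30 from the 8 libraries alone. Without the 4 libraries with liver transcripts they were 2320 at P10 PBS against P2 and 3335 at P10 EV against P2, and the marker genes gave 1 (Sox2) and 2 (Sox2 and Nes); DESeq2 gave 1 marker gene at P10 EV against P2. The wider list gave 1 and 4 with DESeq2, and 6 and 11 without the 4 libraries. Leaving out a library each gave 41 to 1206, 0 to 1 and 8 to 2821 calls over all genes, 0 to 2 marker genes against P2 in either late group, and 0 to 2 and 0 to 9 genes of the wider list; the highest counts against P2 came without P2 replicate 1. The cause of these differences was not tested.

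Log2 fold changes near 0 changed sign. At P10 EV against P2, Ptprz1 was 0.0011 with DESeq2 size factors and in the DESeq2 test, 0.0108 with no filter and 0.0586 and 0.059 on log2(FPKM + 1) and log2(FPKM + 0.1), and Hopx was 0.0389 with the block, 0.1222 and 0.2738 on those FPKM scales and 1.53 without the 4 libraries. At P10 PBS against P2, Ptprz1 was 0.0044 with the block and 0.0055 and 0.0057 on the FPKM scales, and Sox3 -0.0081 without the 4 libraries. With vesicles, Ptprz1 was -0.0051 with the block; Itgb1 was 0.003 with either DESeq2 setting, 0.0018 with no filter, 0.0046 from 8 libraries, 0.0017 with the block and 0.0582 and 0.0587 on the FPKM scales; Sox8 was 0.0343 and 0.0346 and Gfap 0.069 and 0.1923 on those scales; without the 4 libraries Gfap was 1.26 and Mdk 0.1276.

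Leaving out a library each changed further signs. With vesicles the ranges were -0.0452 to 0.1623 for Fabp7, -0.0166 to 0.1317 for Nr2e1, -0.1215 to 0.0735 for Ptprz1, -0.0992 to 0.1061 for Sox3, -0.9363 to 1.08 for Gfap, -0.5458 to 0.0687 for Mdk, -0.0348 to 0.0409 for Itgb1, -0.0817 to 0.0672 for Sox8 and -0.0278 to 0.1727 for Synm. At P10 PBS against P2 they were -1e-04 to 0.1843 for Fabp7, -0.0972 to 0.7785 for Hopx, -0.2581 to 0.1733 for Msi1, -0.064 to 0.4696 for Nes, -0.1193 to 0.1041 for Ptprz1, -0.0316 to 0.16 for Sox3 and -0.3203 to 0.1421 for Fabp5. At P10 EV against P2 they were -0.4506 to 0.4829 for Hopx, -0.1564 to 0.0155 for Nr2e1, -0.1288 to 0.0991 for Ptprz1, -0.2106 to 7e-04 for Sox9 and -0.0166 to 0.1517 for Sox3. Depth limits Prom1, Hopx and Mdk, whose libraries held as few as 16, 14 and 2 counts.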
